A study of Homo sapiens with 4 samples.

Results

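The 10 genes that encode the TGF-beta ligands (TGFB1, TGFB2 and TGFB3), their receptors (TGFBR1, TGFBR2 and TGFBR3) and the latent TGF-beta-binding proteins (LTBP1, LTBP2, LTBP3 and LTBP4) were followed in parental and NOS2KO SUM159 cells. They were chosen by symbol and make up 10 of the 57500 genes in the count tables. All 10 passed the filter on low counts, which kept 22511 genes. The study asked what happens to the transcriptome of a metaplastic breast cancer (MpBC) line when inducible nitric oxide synthase (iNOS, encoded by NOS2) is removed. SUM159 is a triple-negative breast cancer cell line with metaplastic features. There was 1 RNA-seq library from parental cells and 1 library from each of 3 NOS2KO clones, numbered 1, 5 and 6 in the labels. The clones came from SUM159 cells given a NOS2 double nickase plasmid, selected with puromycin and then picked by iNOS immunoblot and by a nitrite/nitrate assay, so each clone is the progeny of a picked cell population and the parental cells did not go through that selection. Both groups were described as grown in DMEM with 10% FBS, and the labels name no drug treatment of these samples.

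TGF-beta is secreted as a latent complex in which the growth factor stays wrapped in its own propeptide. The propeptide is usually linked to a latent TGF-beta-binding protein, which ties the complex to the extracellular matrix until proteases or integrins release the ligand. The free ligand binds TGFBR2, which recruits and phosphorylates TGFBR1, and TGFBR1 in turn phosphorylates SMAD2 and SMAD3. TGFBR3 (betaglycan) is a co-receptor that presents ligand, above all the TGFB2 product. In carcinoma cells the pathway is best known for driving epithelial-to-mesenchymal transition.

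The libraries held 90467395 (parental) to 122171287 (clone 1) counts on genes, and a floor of 3 counts corresponded to 0.0262 to 0.0332 CPM. Of NOS2 itself 2 counts were found in parental cells, and 3, 18 and 1 in the libraries labelled clones 1, 5 and 6. NOS2 mRNA was thus at or under the floor in all libraries but the one labelled clone 5, where it was above the parental library, and it does not check the labels. Line markers were present throughout: VIM had 1655 CPM in the parental library and 2890 to 3855 CPM in the clones. KRT18 had 303.0 CPM in the parental library and 325.9 to 467.3 CPM in the clones. Of 6 line markers, 5 were below all clones in the parental library (28.6% of all tested genes). The other, ZEB1, was above them (30.5% of all), with 83.7 CPM against 39.5 to 57.8 CPM. ESR1 reached at most 0.741 CPM and PGR at most 3 counts. ERBB2, which encodes HER2, had 48.3 CPM in the parental library and 55.6, 106.2 and 99.1 CPM in the libraries labelled clones 1, 5 and 6. Of the 6 fibroblast markers, COL1A1, COL3A1, PDGFRA and PDGFRB were well expressed, and the summed level of all 6 was 1832 CPM in parental cells and 920.8, 6157 and 9058 in the libraries labelled clones 1, 5 and 6. The summed level of 4 leukocyte markers was 17.3 CPM in the parental library and 53.0 to 109.7 CPM in the clones. Most of that sum came from PTPRC in the clones (41.7 to 105.4 CPM, against 4.45 CPM in the parental library), with CD3E at no more than 8 counts in any library. CD14 went the other way, with 12.8 CPM in the parental library and 2.29, 4.28 and 11.3 CPM in the libraries labelled clones 1, 5 and 6. The 3 endothelial markers summed to 10.9 to 16.3 CPM. COL1A1 also stands in the list of target genes, and DCN in that of antagonists. The part of these differences in the results was not tested.

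Values per gene are CPM, counts relative to the TMM-scaled library size. A comparison of different genes uses TPM, which divides by gene length and is not TMM-scaled. The clones as a group were set against parental cells by the quasi-likelihood test of edgeR, with p-values adjusted over all 22511 genes by the method of Benjamini and Hochberg. With 1 parental library, the clones alone supplied the spread. A second criterion, called the volcano criterion here, was modelled on the thresholds of the study's volcano plot and needed an unadjusted edgeR p under 0.05 together with an absolute log2 fold change over 1. The study names a Wald test for its plot and does not say whether its p was adjusted, and with the Wald test of DESeq2 the same thresholds were met by 1591 genes in the higher and 1144 in the lower direction, against 955 and 1202 with edgeR. With 1 library against 3, an exact permutation test cannot give a p below 0.25. Nothing in the labels says whether any libraries were replicate cultures, so p-values measure the spread between clones. All clone comparisons share the same parental library, and in bulk RNA fewer cells making a transcript and less RNA per cell cannot be told apart.

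The fitted log2 fold change was above 0 for 9 of the 10 genes, all but TGFBR3, and no difference passed the test over all genes. TGFB1, TGFB3, TGFBR2, LTBP2 and LTBP3 were lower in the parental library than in all 3 clones, and the other 5 genes had a parental level inside the range of the clones. Over all tested genes, 28.6% were below all 3 clones in the parental library, against 5 of these 10, and 30.5% were above all 3 clones, against 0 of 10. No member reached an adjusted p under 0.05 in edgeR, and 1 of all 22511 genes did (0.00444%). At an unadjusted p under 0.05 there was 1 member and there were 2590 genes in all. LTBP2 was the 1 member that met the volcano criterion, which 4.24% of all genes met in the higher direction and 5.34% in the lower, where there was no member. The median log2 fold change of the members was 0.67, beside 0.10 for all tested genes and -0.04 for the 10709 tested genes that reached 10 CPM in a library. Without the library labelled clone 5 the members' median was 0.47, and the parental library was below both other clones for 6 members (33.6% of all tested genes) and above both for 2 (36.8%).

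**Figure D1:**
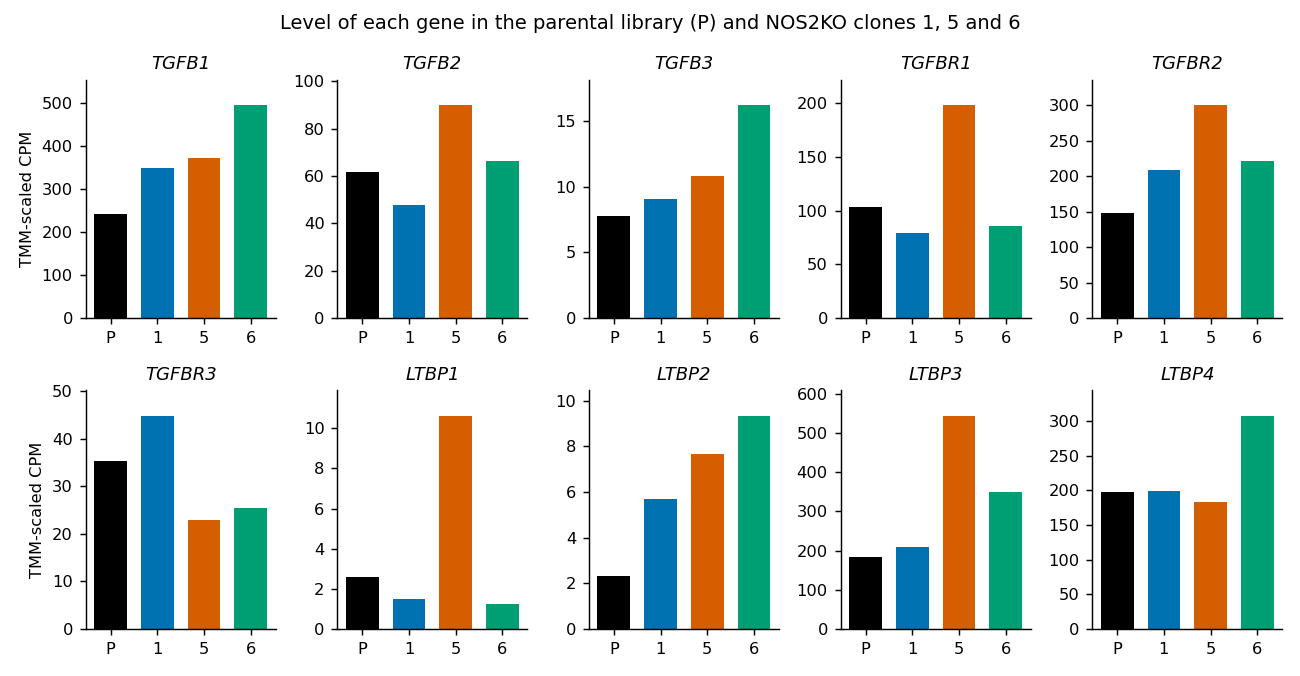
Bars give the TMM-scaled CPM (linear axes starting at 0, each panel with its own scale) of the 10 genes in the parental library (P) and in NOS2KO clones 1, 5 and 6, 1 library each, with no error bars. TGFB1, TGFB3, TGFBR2, LTBP2 and LTBP3 have their lowest bar in the parental library, while LTBP1 is highest in the library labelled clone 5, with 10.6 CPM against at most 2.61 CPM elsewhere.

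Which members stood furthest from the parental library varied with the clone. In clone 1, 7 members were higher than in the parental library, with a median log2 ratio of 0.20 (all tested genes -0.08), and 1 had a log2 ratio above 1 (17.1% of all tested genes) and 0 below -1 (20.2% of all). In the library labelled clone 5, 8 members were higher, with a median log2 ratio of 0.78 (all tested genes 0.03), and 4 were above 1 (21.3% of all) and 0 below -1 (14.7%). In clone 6, 7 members were higher, with a median log2 ratio of 0.61 (all tested genes -0.01), and 3 were above 1 (19.3% of all) and 1 below -1 (16.7%). LTBP2 was the member past a log2 ratio of 1 in every clone. TGFBR2, LTBP1 and LTBP3 passed it in the library labelled clone 5, and TGFB1 and TGFB3 in clone 6. The member below -1 in clone 6 was LTBP1, which was thus past the fold in opposite directions in the libraries labelled clones 5 and 6.

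**Figure D2:**
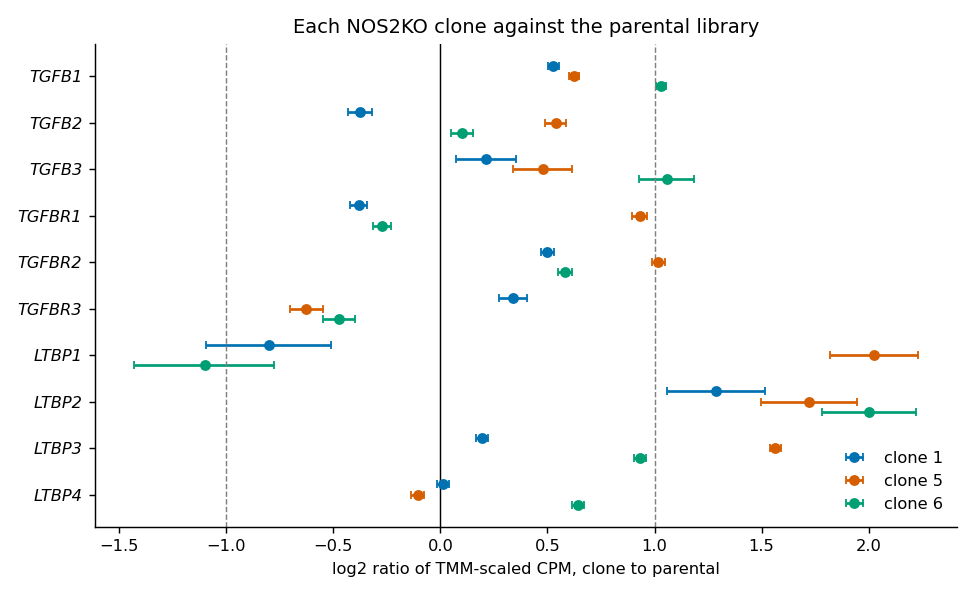
Points give the log2 ratio of TMM-scaled CPM of each NOS2KO clone to the parental library for the 10 genes, and bars the exact 95% interval from the counts, which covers counting error only; dashed lines mark -1 and 1. The 3 clones of LTBP2 all lie above 1, the clones of LTBP1 lie between -1.10 and 2.02, and those of TGFB2, TGFBR1, TGFBR3, LTBP1 and LTBP4 fall on both sides of 0.

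Among the ligands, TGFB1 was the main transcript and was higher in all clones. TGFB1 (ENSG00000105329, chromosome 19 of GRCh38 from 41301587 to 41353911, minus strand) had 241.9 CPM in parental cells and 348.8, 372.4 and 494.6 in the libraries labelled clones 1, 5 and 6. The clones averaged 405.3 ± 78.2 CPM (SD, n = 3), 1.68 times the parental level. Relative to parental cells the log2 ratio was 0.53 (95% interval 0.50 to 0.55) for clone 1, 0.62 (0.60 to 0.65) for the library labelled clone 5 and 1.03 (1.01 to 1.06) for clone 6. The groups did not overlap, and counting error was small against the distance between clones. In edgeR the log2 fold change was 0.74 with an SE of 0.35 and an adjusted p of 0.504, so the difference did not pass the test. Exons of TGFB1 share 215 bases (6.64%) with HNRNPUL1 on the opposite strand, which had 29141 counts in the parental library and 41138 to 82849 in the clones. Whether the counting used strand was not given in the sources used here, so reads from the shared bases cannot be told apart by strand.

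TGFB2 did not separate the groups. TGFB2 (ENSG00000092969, chromosome 1 from 218346235 to 218444619, plus strand), which encodes the isoform that depends most on betaglycan, had 61.9 CPM in parental cells and 47.7, 89.8 and 66.3 in the libraries labelled clones 1, 5 and 6. Its highest and lowest values were both in clones, and the fitted log2 fold change was 0.14 with an SE of 0.42 (edgeR adjusted p = 0.920). TGFB2 shares 1371 exonic bases (26.6%) with TGFB2-OT1, an overlapping RNA on the same strand that had 0 counts in every library. How reads on those bases were counted was not given in the sources used here.

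TGFB3 was the least abundant ligand. TGFB3 (ENSG00000119699, chromosome 14 from 75958099 to 75982991, minus strand) had 7.79 CPM in parental cells and 9.03, 10.8 and 16.2 in the libraries labelled clones 1, 5 and 6. All clones lay above the parental library, in clone 1 by a log2 ratio of 0.21 (95% interval 0.07 to 0.35). The log2 fold change was 0.63 with an SE of 0.48 (edgeR adjusted p = 0.654), and without clone 6, the highest of the clones, it was 0.35 (edgeR adjusted p = 0.939). The antisense gene TGFB3-AS1 had at most 3 counts.

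On the TPM scale the ligand pool was mostly TGFB1. TGFB1 had 283.0 TPM in the parental library and 353.9, 458.9 and 556.6 TPM in the libraries labelled clones 1, 5 and 6, which was 84.6%, 90.7%, 85.4% and 90.4% of the summed ligand TPM. The ratio of TGFB1 to TGFB2 TPM was 6.22 in parental cells and 11.6, 6.60 and 11.9 in the libraries labelled clones 1, 5 and 6. Clones 1 and 6 thus had a ligand makeup shifted toward TGFB1, and the library labelled clone 5 had nearly the parental makeup at a higher total. The summed ligand TPM was 334.5 in parental cells and 390.4, 537.2 and 615.5 in the libraries labelled clones 1, 5 and 6. The length used for TGFB2 included the bases shared with TGFB2-OT1. Its TPM, and the shares and ratios above, thus depend on how reads on those bases were counted. Because TPM is not TMM-scaled, TPM and CPM can differ between libraries. In clone 1, LTBP3 had 67.1 TPM against 67.6 TPM in the parental library, but 210.2 CPM against 183.9 CPM. LTBP3 was thus below all clones in the parental library in CPM and not in TPM. TGFB3 was nearly level with clone 1 in TPM, at 6.00 in the parental library and 6.04 in clone 1.

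**Figure D3:**
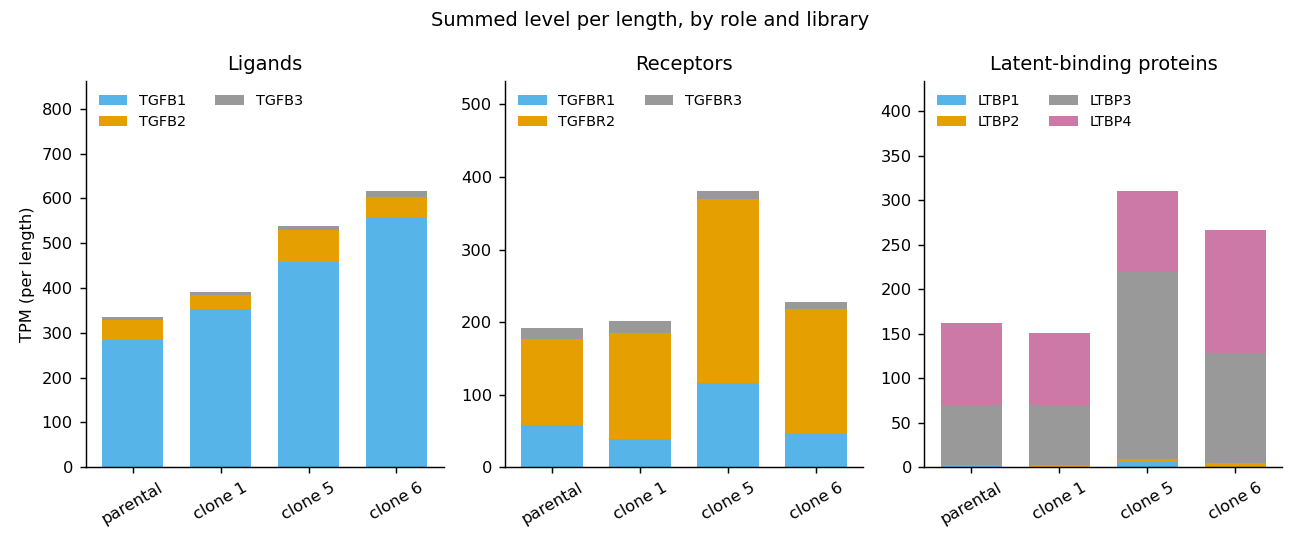
Stacked bars give the level per length (TPM, not TMM-scaled, axes starting at 0) of the ligands, receptors and latent-binding proteins in the parental library and in NOS2KO clones 1, 5 and 6, 1 library each. TGFB1 makes up 84.6% to 90.7% of the ligand TPM, TGFBR2 62.0% to 75.2% of the receptor TPM, and LTBP3 takes 68.0% of the latent-binding TPM in the library labelled clone 5 against 41.8% in the parental library.

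Because TGFB1 was the most abundant member in TPM in all libraries, the bases before its transcription start are shown, with those of LTBP2, the member that met the volcano criterion, and of LTBP1, the member that differed most between clones. The windows are RefSeq sequence on GRCh38.p14, read 5′ to 3′ on the strand of the gene and ending at the transcription start or at the 5′ end of the deposited gene, whichever comes first. Capitals mark the GC box (GGGCGG or its reverse complement CCGCCC, bound by factors of the SP family) and, in LTBP1, the cyclic AMP response element (TGACGTCA). They lie at chr19:41353923-41354172 (minus strand) for TGFB1, chr14:74612379-74612487 (minus strand) for LTBP2 and chr2:32946703-32946952 (plus strand) for LTBP1.
TGFB1: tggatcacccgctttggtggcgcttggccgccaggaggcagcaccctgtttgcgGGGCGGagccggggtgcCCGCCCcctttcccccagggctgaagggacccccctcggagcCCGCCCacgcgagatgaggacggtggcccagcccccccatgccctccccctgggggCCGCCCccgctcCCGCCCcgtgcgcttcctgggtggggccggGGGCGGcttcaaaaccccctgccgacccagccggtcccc
LTBP2: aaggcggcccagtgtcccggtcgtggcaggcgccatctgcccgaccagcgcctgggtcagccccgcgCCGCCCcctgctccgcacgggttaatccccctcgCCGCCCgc
LTBP1: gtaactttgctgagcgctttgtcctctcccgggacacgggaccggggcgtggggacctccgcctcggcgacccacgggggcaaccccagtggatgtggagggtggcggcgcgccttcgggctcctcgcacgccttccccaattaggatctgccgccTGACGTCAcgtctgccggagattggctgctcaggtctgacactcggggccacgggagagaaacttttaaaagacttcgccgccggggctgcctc

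In the 250 bases before the RefSeq start, a GC box was found 6 times for TGFB1, 3 times for LTBP2, 2 times each for TGFBR2 and TGFBR3 and once each for LTBP3 and LTBP4, and 42.6% of all 35116 windows of that length held at least 1. The element TGACGTCA, the same on both strands, was found in the LTBP1 window alone, beginning at position -94 from the start, and 1.65% of all windows held it. The AP-1 letters TGANTCA, searched because the study looked at FOS and JUN, were in none of the 10 windows and in 6.57% of all. TGACGTCA does not contain the AP-1 letters, and the motifs do not overlap in these windows. The RefSeq start lay 11 bases from the deposited 5′ end for TGFB1, 899 for TGFB2, 99 for TGFBR2, 20184 for TGFBR3, 141 for LTBP2, 571 for LTBP3 and 283 for LTBP4. The windows of TGFBR3, LTBP3 and LTBP4, with the GC boxes counted in them, lie inside the deposited gene. RefSeq listed 8 starts for TGFBR1, 3 for LTBP1 and 2 each for TGFB3, TGFBR2, LTBP3 and LTBP4. Only 1 start per gene was searched, so the windows do not cover every promoter of these genes. A match describes letters in this window, and no match says nothing of a factor.

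The signalling receptors went opposite ways in clones 1 and 6 but not in the library labelled clone 5. TGFBR2 was higher in every clone, and TGFBR1 was higher in the library labelled clone 5 and lower in clones 1 and 6. TGFBR2 (ENSG00000163513, chromosome 3 from 30606502 to 30694142, plus strand), the type II receptor that binds free ligand, had 148.0 CPM in parental cells and 209.2, 299.7 and 221.5 in the libraries labelled clones 1, 5 and 6. The clones averaged 243.5 ± 49.1 CPM (SD, n = 3) and did not overlap the parental library. The log2 fold change was 0.72 with an SE of 0.35 (edgeR adjusted p = 0.511), of the same size as for TGFB1, and it did not pass the test.

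TGFBR1 (ENSG00000106799, chromosome 9 from 99104038 to 99154192, plus strand), the kinase that phosphorylates SMAD2 and SMAD3, had 103.9 CPM in parental cells and 79.7, 198.2 and 86.1 in the libraries labelled clones 1, 5 and 6. The library labelled clone 5 stood apart from the other 3, with a log2 ratio to the parental library of 0.93 (95% interval 0.90 to 0.97), against -0.38 in clone 1 and -0.27 in clone 6. The fitted log2 fold change of 0.22 (SE 0.62, edgeR adjusted p = 0.910) turned to -0.31 without that library. TGFBR2 was the more abundant of this pair in TPM in all libraries. Their TPM ratio was 2.07 in parental cells and 3.82, 2.20 and 3.74 in the libraries labelled clones 1, 5 and 6. As with the ligands, the library labelled clone 5 kept nearly the parental ratio at a higher total, 380.3 TPM of the receptors against 192.1 TPM in parental cells and 201.3 and 228.1 TPM in clones 1 and 6.

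TGFBR3 (ENSG00000069702, chromosome 1 from 91680343 to 91906335, minus strand) went the other way from TGFBR1 in clone 1 and in the library labelled clone 5. It had 35.4 CPM in parental cells and 44.7, 22.9 and 25.5 in the libraries labelled clones 1, 5 and 6. The parental level lay inside the range of the clones, and the log2 fold change was -0.19 with an SE of 0.48 (edgeR adjusted p = 0.899). The TPM of TGFBR3 relative to TGFBR2 was 0.129 in parental cells and 0.116, 0.0414 and 0.0621 in the libraries labelled clones 1, 5 and 6. Betaglycan mRNA was thus low beside the type II receptor in every library, and lowest in the library labelled clone 5.

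The latent-binding proteins held both the largest difference between the groups and the largest difference between clones. LTBP2 (ENSG00000119681, chromosome 14 from 74498170 to 74612378, minus strand), a matrix protein that, unlike the others of its family, is not known to bind latent TGF-beta, had 211 counts in parental cells and 653, 819 and 920 in the libraries labelled clones 1, 5 and 6. These were 2.33, 5.69, 7.68 and 9.33 CPM, and the clones averaged 7.57 ± 1.82 CPM (SD, n = 3), 3.24 times the parental level. Every clone was above the parental library by more than its counting error, by a log2 ratio of 1.29 (95% interval 1.06 to 1.52) for clone 1, 1.72 (1.499 to 1.944) for the library labelled clone 5 and 2.00 (1.78 to 2.22) for clone 6. The log2 fold change was 1.70 with an SE of 0.49, at an unadjusted p of 0.0289 and an adjusted p of 0.378 in edgeR. DESeq2's Wald test gave LTBP2 an adjusted p of 0.0253, and it was the 1 member called higher by that test, which called 3.13% of 17710 genes higher and 3.05% lower, with no member lower. Without the library labelled clone 5 the log2 fold change was 1.70 and the edgeR unadjusted p 0.0807, and without clone 6 they were 1.52 and 0.106. LTBP2 shares 207 exonic bases with the opposite-strand gene AC013451.1, which had 0 counts in parental cells and 0, 6 and 14 in the libraries labelled clones 1, 5 and 6.

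LTBP3, one of the members of the family that bind latent TGF-beta best, differed mainly in the libraries labelled clones 5 and 6. LTBP3 (ENSG00000168056, chromosome 11 from 65538805 to 65558930, minus strand) had 183.9 CPM in parental cells and 210.2, 543.5 and 350.6 in the libraries labelled clones 1, 5 and 6. The clones averaged 368.1 ± 167.3 CPM (SD, n = 3). Clone 1 was close to the parental library, by a log2 ratio of 0.19 (95% interval 0.17 to 0.22), and the library labelled clone 5 was far above it, by 1.56 (1.54 to 1.59). The log2 fold change of 1.00 (SE 0.58, edgeR adjusted p = 0.569) did not pass the test. Without clone 1 it was 1.28 at an unadjusted p of 0.0288 and an adjusted p of 0.193, which meets the volcano criterion, and without the library labelled clone 5 it was 0.63 at an unadjusted p of 0.285 and an adjusted p of 0.796.

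LTBP4 (ENSG00000090006, chromosome 19 from 40592883 to 40629818, plus strand), which binds the TGFB1 complex and takes part in elastic fibre assembly, was near the parental level in clone 1 and in the library labelled clone 5. It had 196.9 CPM in parental cells and 198.7, 182.9 and 307.2 in the libraries labelled clones 1, 5 and 6. Clone 6 was the high library, and the log2 fold change was 0.22 with an SE of 0.41 (edgeR adjusted p = 0.857). The TPM ratio of LTBP3 to LTBP4 was 0.735 in parental cells and 0.833, 2.34 and 0.899 in the libraries labelled clones 1, 5 and 6, so LTBP3 exceeded LTBP4 in TPM in the library labelled clone 5 alone.

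LTBP1, the founding member of the family, was low in TPM and varied most among the clones. LTBP1 (ENSG00000049323, chromosome 2 from 32946972 to 33399509, plus strand) had 236 counts in parental cells and 172, 1131 and 120 in the libraries labelled clones 1, 5 and 6, or 2.61, 1.5, 10.6 and 1.22 CPM. The highest clone was 8.72 times the lowest, and the parental library lay between them. The fitted log2 fold change of 0.77 carried an SE of 1.41 (edgeR adjusted p = 0.861), and it turned to -0.92 without the library labelled clone 5. The SD of log2 CPM over the 3 clones was 1.496 for LTBP1, larger than for 97.6% of all tested genes, and its median over the members was 0.43, beside 0.26 for all tested genes and 0.30 for those with at least 10 CPM.

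The order of the members by TPM was stable at the top and bottom. TGFB1 came first and TGFBR2 second in all libraries, and LTBP1 and LTBP2 were the last in all of them. The next in the order was LTBP4 in the parental library and clones 1 and 6, and LTBP3 in the library labelled clone 5. LTBP3 had 67.6 TPM and LTBP4 92.0 TPM in the parental library, and the clones' TPM of these 2 genes overlapped (67.1 to 210.6 and 80.5 to 138.1). The clones' TPM also overlapped between TGFBR1 (38.3 to 115.5) and TGFB2 (30.4 to 69.6), between TGFBR3 (10.5 to 16.9) and TGFB3 (6.04 to 12.0), and between LTBP1 (0.605 to 5.78) and LTBP2 (2.06 to 3.74), so these neighbours in the order did not differ beyond the spread of the clones. TGFB1 (353.9 to 556.6) and TGFBR2 (146.1 to 254.2) did not overlap.

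The genes whose 3 clone-to-parental log2 ratios were nearest to those of TGFB1, among 10708 other genes that reached 10 CPM in a library, were SIGIRR, DHRS7 and TMEM101, with root mean square differences of 0.0576, 0.0578 and 0.0662. For LTBP3, the member with the largest log2 fold change at that level, they were SEMA3B, SHC3 and PRR5L, with 0.103, 0.116 and 0.130. No member of the TGF-beta lists was among them. The 3 ratios share the parental library, so this likeness is a description of these 4 libraries.

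Around the 10 members, other genes of the pathway were followed in 4 lists. No gene of the 4 lists had an edgeR adjusted p under 0.05, and their counts of genes outside the range of the clones stand beside the 28.6% (parental below) and 30.5% (parental above) of all tested genes. Their counts by the volcano criterion stand beside 4.24% of all tested genes in the higher and 5.34% in the lower direction. Of 20 SMAD transducers and regulators, all tested, 0 met the volcano criterion in the higher direction and 1 in the lower, and the parental library was below all clones for 2 genes and above all clones for 9. The median log2 fold change of that list was -0.24. TGIF1, a corepressor that binds SMAD complexes, met the criterion, with 107.5 CPM in the parental library and 48.5, 36.0 and 38.9 CPM in the libraries labelled clones 1, 5 and 6. Its log2 fold change was -1.39 with an SE of 0.30 (edgeR adjusted p = 0.314, DESeq2 adjusted p = 0.0255). PPM1A, a phosphatase that acts on the receptor SMADs, had the next lowest value, -0.95 (SE 0.31), with 62.0 CPM in the parental library and 27.6 to 37.6 CPM in the clones. The highest values of the list were 0.71 (SE 0.55) for the inhibitory SMAD6 and 0.46 (SE 0.31) for FKBP1A, which binds the type I receptor. The transducers, named for their role after their values were seen, did not meet the criterion. SMAD2 had 56.4 CPM in the parental library and 38.5 to 58.3 CPM in the clones, SMAD3 114.2 and 108.5 to 129.3 CPM, and SMAD4 39.5 and 31.8 to 36.3 CPM.

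**Figure D4:**
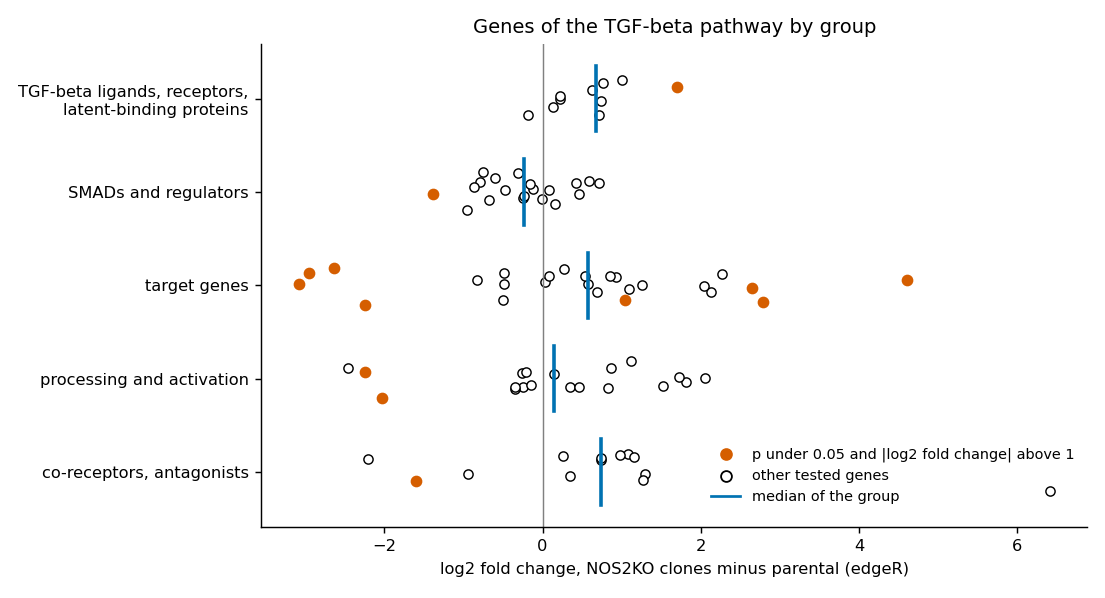
Each point is the log2 fold change (NOS2KO clones minus parental, edgeR) of 1 tested gene, grouped as the 10 members and 4 lists of the TGF-beta pathway, with filled points for genes that met the volcano criterion and blue bars for the median of a group. The target genes hold 4 filled points on each side of 0, while the medians of the members and the SMAD list are 0.67 and -0.24.

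Textbook target genes of TGF-beta were split between both directions. Of 25 genes, 4 met the volcano criterion in the higher direction (THBS1, CCN2, COL1A2 and TGFBI) and 4 in the lower, among them CDKN2B, IL11 and SPHK1. The parental library was below all clones for 12 and above all clones for 5, and the median log2 fold change was 0.58. SPHK1, a sphingosine kinase, had 49.7 CPM in the parental library and 9.42, 9.35 and 5.27 CPM in the libraries labelled clones 1, 5 and 6. Its log2 fold change was -2.63 with an SE of 0.46 (edgeR adjusted p = 0.275). IL11, a cytokine, was lower as well, with a log2 fold change of -2.96 (SE 0.65). IL11 had 5.63 CPM in the parental library and 0.445 to 0.882 CPM in the clones. CDKN2B, a cyclin-dependent kinase inhibitor, was near the floor, with 50 counts in the parental library and 13, 3 and 5 in the clones.

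The 4 genes that met the criterion in the higher direction encode matrix or matricellular proteins. Other such genes of the list did not meet it. Their log2 fold changes were 2.14 (CCN1), 0.69 (COL1A1), 0.27 (FN1) and -0.82 (COL4A1). CCN2, connective tissue growth factor, had 15.0 CPM in the parental library and 157.2, 71.5 and 82.1 CPM in the libraries labelled clones 1, 5 and 6 (log2 fold change 2.79, SE 0.53, edgeR adjusted p = 0.332). THBS1, thrombospondin, which can also activate latent TGF-beta, had 69.01 CPM in the parental library and 550.1, 3302 and 1192 CPM in the libraries labelled clones 1, 5 and 6 (log2 fold change 4.61, SE 1.01, edgeR adjusted p = 0.357). TGFBI, a TGF-beta-induced matrix protein, was abundant throughout, with 1664 CPM in the parental library and 3142 to 3866 CPM in the clones. COL1A2 had only 10 counts in the parental library and 50 to 101 in the clones. DESeq2 called 4 genes of the list at an adjusted p under 0.05, THBS1 and CCN2 higher and IL11 and SPHK1 lower.

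Of 22 genes that process or activate latent TGF-beta, 19 were tested, and ITGB6, PLG and FBN2 were too low. None met the volcano criterion in the higher direction and 2 in the lower, and the parental library was below all clones for 4 and above all clones for 4, with a median log2 fold change of 0.14. The 2 were LRRC32, which holds latent TGF-beta at the cell surface (2.51 CPM in the parental library, 0.413 to 0.761 CPM in the clones), and the membrane protease MMP14 (1.55 and 0.166 to 0.525 CPM, at an unadjusted p of 0.04996). MMP14 sat at the edge of the criterion and lost it under every other scaling. At 10 CPM or more, the largest log2 fold changes were 2.06 (SE 1.06) for the elastic fibre gene FBLN5 and 1.72 (SE 0.74) for PLAT, tissue plasminogen activator. The smallest were -0.35 (SE 0.68) for ITGB3 and -0.34 (SE 0.50) for ITGAV, subunits of an integrin that releases the ligand, and ITGAV was low in clone 1 alone, at 120.2 CPM against 243.1 to 257.3 CPM in the other libraries.

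Of 13 co-receptors and extracellular antagonists, 0 met the volcano criterion in the higher direction and 1 in the lower, the parental library was below all clones for 4 and above all clones for 3, and the median log2 fold change was 0.74. The gene that met it was TGFBR3L, a relative of TGFBR3, with 12.8 CPM in the parental library and 2.89, 4.79 and 4.95 CPM in the libraries labelled clones 1, 5 and 6 (log2 fold change -1.61, SE 0.52, edgeR adjusted p = 0.36). BGN and SDC2, matrix and cell-surface proteoglycans, had the highest values at 10 CPM or more, 1.29 (SE 0.64) and 1.28 (SE 1.55), and FMOD had the lowest, -2.21 (SE 2.48). FMOD had 11.8 CPM in the parental library and 7.44 CPM in the library labelled clone 5, but 0.140 and 0.0811 CPM in clones 1 and 6, so the clones differed from each other by more than the groups. ASPN, named after its values were seen, was the 1 gene of the list that DESeq2 called (adjusted p = 0.0201), with 2 counts in parental cells and 30, 562 and 43 in the libraries labelled clones 1, 5 and 6.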

How the data were processed

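RNA-seq libraries of parental SUM159 cells (1) and NOS2KO clones 1, 5 and 6 (1 each) were analysed. Per the labels, poly(A)-enriched RNA went into a NEBNext Ultra II RNA kit and was sequenced as paired ends. The submitters' processing notes name bcl2fastq 2.17, Trimmomatic 0.36, STAR 2.5.2b, featureCounts of Subread 1.5.2, DESeq2 and GRCh38. The tables the authors deposited hold raw counts of reads on each gene; the strand setting and annotation release were not given in the sources used here. Of 57500 gene identifiers, 56898 had a symbol in GENCODE release 29 and 54784 the same start and end. CCN1 and CCN2 are listed there as CYR61 and CTGF. Depth and its floor of 3 counts are given with the results, and both floors and intervals describe counting error only.

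Counts were filtered with filterByExpr, TMM-scaled and tested in R 4.3.3 with edgeR 4.0.16 (glmQLFit, glmQLFTest; 2 residual and 2.75 prior degrees of freedom, the spread of the clones being assumed for the parental cells). The members' clone ratios carry exact Clopper-Pearson 95% intervals. For a gene with 0 counts in either library the ratio used counts plus 0.5, and it could count as past the fold. TPM used the deposited gene lengths, and the SD of log2 CPM a pseudocount of 0.5. Promoter windows were RefSeq sequences. Other steps used Python 3.11.15, numpy 2.4.6, pandas 2.3.3, scipy 1.17.1 and matplotlib 3.10.9. The edgeR and DESeq2 1.42.0 scripts were tested on simulated data.

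The members and lists were chosen with earlier results of these data known. Named were all members; of each list the genes that met the volcano criterion and the 2 highest and 2 lowest log2 fold changes at 10 CPM or more; NOS2; genes overlapping a member's exons; and, for TGFB1 and the member with the largest change at 10 CPM or more, the 3 nearest genes. Some genes that the rule or the lists name are not reported here. Alternatives were RLE, upper quartile and no scaling, no filter or a minimum of 1 CPM, DESeq2, robust estimation, a log2 fold threshold of 0.58, single clones left out or used alone. The bias-adjusted method of edgeR, the range counts with a clone left out and the genomic neighbours were added after seeing the data. Leaving out a clone leaves 1 residual degree of freedom, and a clone alone gives a value without a test.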

Additional observations from a re-analysis of the deposited data

How the results depend on the processing

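Over 140 combinations of a member and an alternative, 119 log2 fold changes kept their direction and their side of the volcano criterion, or lay within the spread of the clones, and 12 changed sign. No scaling, filter or test changed a sign. The changes of sign came from single clones: TGFB2 was -0.099 without the library labelled clone 5 (leave-one-out range -0.099 to 0.336) and -0.375 in clone 1 alone. TGFBR1 was -0.308 without the library labelled clone 5 (range -0.308 to 0.452), -0.382 in clone 1 alone and -0.272 in clone 6 alone. TGFBR3 was 0.006 without the library labelled clone 5 (range -0.548 to 0.006) and 0.339 in clone 1 alone. LTBP1 was -0.924 without the library labelled clone 5 (range -0.924 to 1.213), -0.799 in clone 1 alone and -1.098 in clone 6 alone. LTBP4 was -0.045 without clone 6 (range -0.045 to 0.381) and -0.106 in the library labelled clone 5 alone. These differences follow from which clones entered the fit. The members' median was 0.203 in clone 1 alone. Without a change of sign, TGFB3 lay between 0.352 (without clone 6) and 0.795, and LTBP3 between 0.629 (without the library labelled clone 5) and 1.282 (without clone 1).

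With a clone left out, 0 to 2 members met the volcano criterion (LTBP2 lost it without the library labelled clone 5 or clone 6, and LTBP3 met it without clone 1), and the parental library was above the clones for 0 to 2 members. With DESeq2, 1 member, LTBP2, had an adjusted p under 0.05. LTBP2's adjusted p lay between 0.0253 (DESeq2) and 0.772 (without clone 6) over the alternatives. Of the SMAD list, 1 to 3 genes met the volcano criterion with a clone left out (3 without clone 1), and 3 did at a log2 fold threshold of 0.58. Of the processing list this was 1 under RLE, upper quartile or no scaling, 1 at a minimum of 1 CPM, 1 with robust estimation, 4 without a filter, 5 with DESeq2 and 1 to 7 with a clone left out (7 without clone 1). Of the co-receptors it was 2 without a filter, 2 with DESeq2, 2 at the threshold of 0.58 and 2 to 5 with a clone left out (5 without clone 1). Without clone 1 the criterion was also met by more genes in all, 1826 higher and 1635 lower of 22511 tested, against 955 and 1202 with all clones. The cause was not tested. Of the target genes, 8 met the criterion in the results above, 9 without a filter, 6 at a minimum of 1 CPM and 10 with DESeq2. With a clone left out their number moved as well, and it was highest without clone 1.

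Upper quartile scaling moved the median log2 fold change of all genes by 0.104, and the volcano criterion then gave 1124 higher and 1002 lower genes, against 1591 and 1144 with DESeq2. DESeq2 called 1095 genes at an adjusted p under 0.05, edgeR 1, edgeR without a filter 6 and its bias-adjusted method 5. No paired analysis was possible because a single parental library stood against all 3 clones. Ordering the members by CPM in place of TPM put LTBP3 first in the library labelled clone 5 and TGFBR2 behind LTBP4 and LTBP3 in the parental library. Depth did not limit the members, the lowest of which had 120 counts, whereas 1 parental library and 3 clones limit every statement on the knockout.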

Other observations

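Pairs of members lie near each other in the genome: LTBP4 and TGFB1 are 0.672 Mb apart on chromosome 19, and LTBP2 and TGFB3 are 1.346 Mb apart on chromosome 14. Genes that reached 10 CPM in a library and lie within 2 Mb of each member were therefore described, a look added after the data were seen. The 109 genes around LTBP3 had median log2 ratios to the parental library of 0.30, 0.20 and 0.16 in the libraries labelled clones 1, 5 and 6, beside 0.19, 1.56 and 0.93 for LTBP3 itself, and 48.6% of them were below all clones in the parental library, against 27.8% of all genes at that level. The 49 genes around TGFB1 had medians of 0.34, -0.13 and 0.21, beside 0.53, 0.62 and 1.03 for TGFB1. The 18 genes around TGFBR1 had medians of -0.19, -0.29 and -0.61, beside -0.38, 0.93 and -0.27 for TGFBR1, and the 11 genes around LTBP1 had medians of -0.32, -0.80 and -0.53, beside -0.80, 2.02 and -1.10 for LTBP1. In the library labelled clone 5 the median of the neighbours was below 0 around 9 of the 10 members, all but LTBP3, and 7 of the 8 members above the parental library there had such neighbours. The median of all genes at that level was -0.13 in the library labelled clone 5, -0.05 in clone 1 and -0.10 in clone 6. In the library labelled clone 5 the neighbours of TGFB1 (-0.13) and LTBP4 (-0.15) were thus near that median. The windows of TGFB1 and LTBP4 overlap, as do those of TGFB3 and LTBP2, so these counts of members are not counts of separate regions. The share of all genes with such neighbours was not computed. In clones 1 and 6 the median of the neighbours was below 0 around 4 and 5 members. The copy number of these regions was not measured here.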
